A study of Homo sapiens with 6 samples.

Results

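The genes described are the ubiquitin-conjugating enzyme genes named UBE2 and the ubiquitin-specific protease genes named USP, taken from the gene table by their symbols alone, with UBE2C left out. The symbol rule found 77 genes among the 16362 of the table, 31 UBE2 genes and 46 USP genes. Counts were compared between cells given CTI-2 (3 libraries, 24 h) and control cells given no agent (3 libraries). CTI-2 is a code name. Its dose is not stated in the labels, nor is a vehicle for the control cells. Both groups are the cell line labelled MDA-MB-231, commonly described as a triple-negative and mesenchymal human breast cancer line, and RNA was read as cDNA on the Oxford Nanopore platform. No source says that libraries of a group came from separate cultures, so p-values measure only the spread between these libraries, which may be technical.

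Ubiquitin is a small protein that cells attach to other proteins, singly or in chains, to mark them for the proteasome or to change what they bind. An E1 enzyme activates it, an E2 enzyme (the UBE2 genes) carries it on a cysteine, and an E3 ligase passes it to the substrate, while deubiquitinases, of which the USP enzymes are the largest class, take it off again. Some UBE2 enzymes carry relatives of ubiquitin, such as SUMO and NEDD8, and the UBE2V proteins lack the catalytic cysteine.

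Totals were 2208261 to 3153469 counts in CTI-2 libraries and 2349758 to 3929532 in controls, so a floor of 3 counts equals 0.951 to 1.36 CPM after CTI-2 and 0.763 to 1.28 CPM in controls (CPM, as deposited, is the count divided by its library's total, times 1000000). Against the label, CDKN2A, commonly listed as deleted in MDA-MB-231, was counted at 254 to 612 CPM over the 6 libraries. MTAP, its neighbour, was at 10.8 to 19.02 CPM and EPCAM at 6.98 to 10.6 CPM, both also checked as genes expected near 0, whereas ESR1 and CDH1 had at most 2 and 1 counts. Of genes of other cell types, PTPRC of leukocytes has no row in the table and ALB of hepatocytes had at most 1 count. PECAM1 of endothelial cells was read in every library, at 1.93 to 4.58 CPM (5 to 18 counts). Of mesenchymal genes expected in the line, CD44 was at 131 to 188 CPM, SPARC at 160 to 225 CPM, CAV1 at 57.0 to 83.4 CPM and TGFBI at 76.4 to 306 CPM, while VIM was at 14.5 to 18.9 CPM and AXL at 2.98 to 7.41 CPM. The identity of the cells was not settled by these markers. In bulk RNA of this kind, fewer cells of a type and less RNA per cell cannot be told apart. Over all genes the chi-square per degree of freedom was 1.77 to 2.43 between pairs of CTI-2 libraries, and 3.94 for controls 1 and 2, 3.92 for controls 1 and 3 and 6.76 for controls 2 and 3, so no single control stood apart by this measure. Control 2 differed in sign from controls 1 and 3 in the genes of short transcripts: in the 1844 tested genes with the shortest annotated transcripts, median log2 CPM deviations from the mean over libraries were 0.06, 0.07 and 0.07 in CTI-2 libraries 1 to 3 and -0.08, 0.08 and -0.17 in controls 1 to 3.

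After CTI-2, USP14, USP25 and UBE2D2 fell to between 0.53 and 0.57 of their control level, and UBE2V2 rose by 1.29-fold. In all, calls were made for 3 of 28 tested UBE2 genes (2 higher, 1 lower) and 2 of 32 tested USP genes (0 higher, 2 lower), where a gene was called if its Benjamini-Hochberg adjusted p was under 0.05 by edgeR (quasi-likelihood test). Over all 9848 genes tested, 8.03% were called, 3.39% higher and 4.64% lower. The members' shares, 10.7% of UBE2 and 6.25% of USP genes, lay near that background, so the number of calls is not particular to either family. At an unadjusted p under 0.05 lay 8 of 28 UBE2 genes and 4 of 32 USP genes, beside 23.9% of all genes. By direction, 7 of these UBE2 genes were higher and 1 lower, and 1 USP gene was higher and 3 lower. Over all 9848 genes, 1112 were higher and 1246 lower at that unadjusted threshold. By adjusted p, limma-voom also called 0 USP genes higher. DESeq2 called 1 UBE2 gene higher and 1 lower, and 0 USP genes higher and 1 lower, beside 6.39% of all its genes (3.39% higher and 3.0% lower). With no filter on low counts the numbers were 2 and 2 for UBE2 and 0 and 3 for USP genes, beside 5.39% of all genes (1.93% higher and 3.47% lower).

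**Figure D1:**
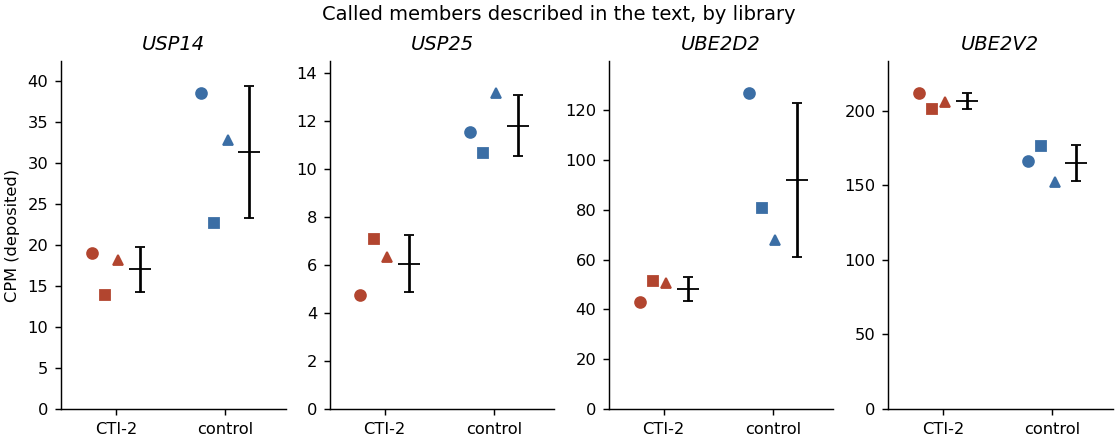
Deposited CPM (vertical axis, from 0) of USP14, USP25, UBE2D2 and UBE2V2 in the 3 CTI-2 and 3 control libraries; circles, squares and triangles are libraries 1, 2 and 3 of each group, and bars are mean ± SD. The groups do not overlap for any of the 4 genes, and the gap is narrowest beside control 2 for USP14, USP25 and UBE2V2.

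UBE2D2 belongs to the UBE2D enzymes, which start ubiquitin chains with many different E3 ligases. Its position is chromosome 5, 139526431 to 139628433, plus strand (GENCODE 29, GRCh38). UBE2D2 stood at 42.8, 51.2 and 50.7 CPM in CTI-2 libraries 1 to 3, against 127, 80.9 and 68.1 CPM in controls 1 to 3. All 3 CTI-2 values lay below all 3 control values, and the controls were the more spread group, with control 1 highest. UBE2D2 averaged 48.3 ± 4.72 CPM after CTI-2 and 92.04 ± 31.04 CPM in controls (SD, n = 3 each; edgeR log2 fold change -0.88, SE 0.20, adjusted p = 0.016). Leaving out control 2 ended the call (edgeR log2 fold change -0.93, adjusted p = 0.0754), and it held in edgeR whichever other library was left out. Without control 1 the fall was smaller (edgeR log2 fold change -0.61, adjusted p = 0.0134).

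The other UBE2D genes did not pass. UBE2D3 had 161, 176 and 198 CPM after CTI-2 and 169, 144 and 144 CPM in controls, groups that overlap at control 1 (edgeR log2 fold change 0.27, SE 0.11, adjusted p = 0.126). UBE2D1 had 3, 8 and 1 counts after CTI-2, against 32, 17 and 5 counts in controls, and was below the low-count filter. The fit with no filter in edgeR called UBE2D1 lower (log2 fold change -2.02, adjusted p = 0.00072), although control 3 lay below CTI-2 library 2 in CPM. UBE2D4 had at most 6 counts in any library.

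**Figure D2:**
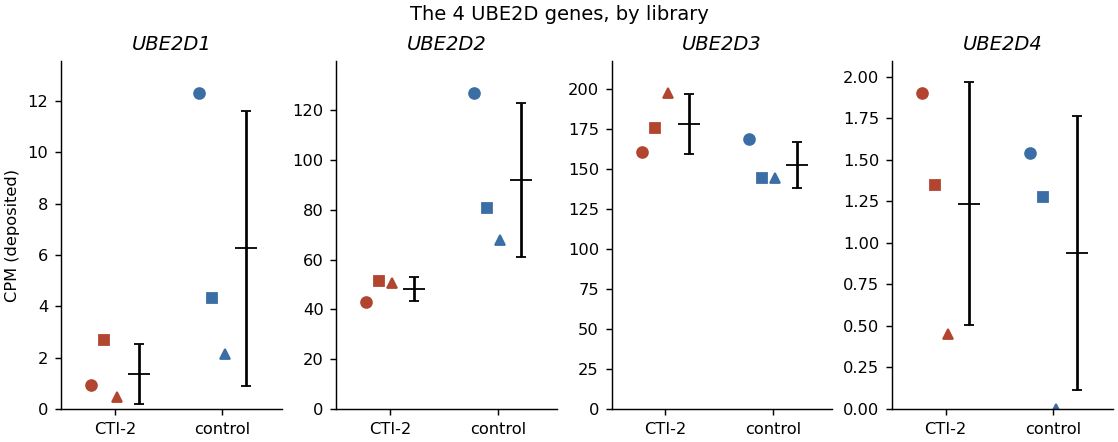
Deposited CPM (vertical axes, each from 0) of the 4 UBE2D genes in CTI-2 and control libraries; circles, squares and triangles are libraries 1, 2 and 3, and bars are mean ± SD. UBE2D2 lies at 42.8 to 51.2 CPM after CTI-2 and at 68.1 to 127 CPM in controls, while UBE2D3 and UBE2D1 overlap between the groups.

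UBE2D2 and UBE2D3 are close in coding sequence, which bears on how reads could be divided between them. Their annotated transcripts have 2702 and 2389 bases, and the bases outside the coding part were not compared. Over their 444 coding bases UBE2D2 and UBE2D3 have the same base at 384 (86.5%), against 349 for UBE2D1 and UBE2D2 (78.6%). Coding bases 193 to 312, which lie around the catalytic site, begin with 65 identical bases and differ at 11 of 120. Capitals mark the bases that differ, read from GENCODE 29 transcripts.
UBE2D2: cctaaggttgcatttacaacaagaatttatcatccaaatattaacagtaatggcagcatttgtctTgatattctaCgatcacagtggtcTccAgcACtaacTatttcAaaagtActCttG
UBE2D3: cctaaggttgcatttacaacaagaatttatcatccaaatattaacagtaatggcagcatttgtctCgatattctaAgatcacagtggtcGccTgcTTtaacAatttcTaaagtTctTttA
Which read counter was used is not stated, and whether reads were shared between the paralogs was not tested.

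UBE2V1 and UBE2V2 encode inactive E2 variants that pair with UBE2N to build the ubiquitin chains used in signalling and DNA repair. UBE2V2 (chromosome 8, 48008400 to 48064708, plus strand) had 212, 202 and 206 CPM after CTI-2, against 166, 176 and 152 CPM in controls. Its groups did not overlap, and it averaged 207 ± 5.32 CPM after CTI-2 and 165 ± 11.9 CPM in controls (SD, n = 3 each; edgeR log2 fold change 0.37, SE 0.11, adjusted p = 0.032). Of the 6 fits that each leave out a library, the edgeR call held only in that without control 2, and adjusted p reached 0.133 in the others; it also missed the threshold with the GC trend removed (0.0731).

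UBE2V1 had 75.8, 74.1 and 88.3 CPM after CTI-2 and 53.5, 66.7 and 67.2 CPM in controls. Its groups did not overlap either, but the difference did not pass (edgeR log2 fold change 0.38, SE 0.13, adjusted p = 0.063). GENCODE 29 names 15 pseudogenes after UBE2V1 and 4 after UBE2V2, none of them in the count table. UBE2V1 also overlaps the counted readthrough gene TMEM189-UBE2V1 on its strand (log2 fold change -0.01), so both values are uncertain. Uncounted pseudogenes are also named after UBE2Q2 (8), UBE2D3 (4), UBE2F (3), USP32 (3) and UBE2S (2). UBE2H, UBE2M, UBE2N, UBE2W, USP8 and USP24 have 1 each. The values of all these genes are likewise uncertain. UBE2N, the partner of UBE2V1 and UBE2V2, with 179 ± 11.7 CPM after CTI-2 and 176 ± 13.6 CPM in controls, had a log2 fold change of 0.07 with an SE of 0.11.

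The E2 genes for NEDD8 and ISG15 gave no call. UBE2M, which carries NEDD8, averaged 13.7 ± 2.13 CPM after CTI-2 and 11.2 ± 0.200 CPM in controls (SD, n = 3 each; log2 fold change 0.34, edgeR adjusted p = 0.368). UBE2F, the second NEDD8 enzyme, had a log2 fold change of -0.22, and it overlaps UBE2F-SCLY. UBE2L6, the ISG15 enzyme, was read once in each group, so a difference was not detectable at this depth.

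Most of the remaining UBE2 genes with many counts had small positive log2 fold changes that did not pass. UBE2L3, an E2 for HECT and RBR ligases, averaged 313 ± 9.42 CPM after CTI-2 and 277 ± 13.0 CPM in controls (log2 fold change 0.22, edgeR adjusted p = 0.198). UBE2T, of the Fanconi anaemia pathway of DNA repair, had 0.21, UBE2S, which lengthens chains for the anaphase-promoting complex, 0.32, and the RAD6 homologues UBE2A and UBE2B had 0.20 and 0.03 on the log2 scale. UBE2S overlaps the highly counted RPL28 on the opposite strand, and no source states if reads were assigned by strand. Of the endoplasmic reticulum degradation enzymes, UBE2J2 had 0.34 and UBE2J1 and UBE2G2 had -0.30 and -0.23. UBE2G1, with 20, 19 and 9 counts after CTI-2 and 27, 30 and 19 counts in controls, had -0.54 (edgeR adjusted p = 0.257), second only to UBE2D2 among tested UBE2 genes.

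USP14 encodes a deubiquitinase that binds the proteasome and trims chains from its substrates. USP14 (chromosome 18, 158383 to 214629, plus strand) had 19.03, 13.8 and 18.1 CPM after CTI-2, against 38.5, 22.6 and 32.8 CPM in controls. All CTI-2 libraries lay below all controls, with control 2 nearest to them. USP14 averaged 17.0 ± 2.78 CPM after CTI-2 and 31.3 ± 8.03 CPM in controls (SD, n = 3 each; edgeR log2 fold change -0.80, SE 0.19, adjusted p = 0.0074), the smallest adjusted p of the 60 tested members. DESeq2 also called it (adjusted p = 0.0396), and leaving out control 1 (0.0712) or CTI-2 library 2 (0.0608) ended the edgeR call. USP14 overlaps THOC1 on the opposite strand, which rose (edgeR log2 fold change 0.43, adjusted p = 0.0283).

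USP25, a deubiquitinase known for its roles in immune signalling and at the endoplasmic reticulum, spans 15730025 to 15880069 of chromosome 21, plus strand. It had 15, 21 and 14 counts after CTI-2, against 30, 42 and 31 counts in controls, which is 4.76, 7.08 and 6.34 CPM after CTI-2 and 11.6, 10.7 and 13.2 CPM in controls. The groups did not overlap (edgeR log2 fold change -0.91, SE 0.27, adjusted p = 0.027). DESeq2 did not call USP25 (adjusted p = 0.153). Of the 6 edgeR fits that each leave out a library, those without control 1, control 3, CTI-2 library 1 and CTI-2 library 3 did not call it either (highest adjusted p = 0.151).

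The start regions of the 3 members that fell were read from RefSeq (GRCh38.p14), to show the letters before their RefSeq starts. The RefSeq start used for UBE2D2 lies inside the gene, downstream of the GENCODE start given above, so its stretch is not upstream of the whole gene. Of the 77 members 62 had an entry. Capitals mark GC boxes (GGGCGG or its reverse complement CCGCCC); each stretch begins 250 bases before the RefSeq start, and those of UBE2D2 and USP14 were cut where a GENCODE exon of the gene begins within the window, which for USP14 is the start of the gene.
UBE2D2, chr5:139561089-139561165, plus strand: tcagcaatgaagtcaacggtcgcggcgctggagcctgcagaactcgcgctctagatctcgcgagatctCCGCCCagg
USP14, chr18:158307-158382, plus strand: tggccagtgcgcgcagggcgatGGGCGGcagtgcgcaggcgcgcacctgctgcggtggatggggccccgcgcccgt
USP25, chr21:15729732-15729981, plus strand: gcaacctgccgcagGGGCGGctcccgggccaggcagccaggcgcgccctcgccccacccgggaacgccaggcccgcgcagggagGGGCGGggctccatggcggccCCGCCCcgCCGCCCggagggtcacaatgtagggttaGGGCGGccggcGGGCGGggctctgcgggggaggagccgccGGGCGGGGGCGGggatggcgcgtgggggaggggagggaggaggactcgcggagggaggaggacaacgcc
All 3 hold a GC box, with 1 in the 77 bases of UBE2D2, 1 in the 76 bases of USP14 and 8 in the 250 bases of USP25. GC boxes are common, present in 42.6% of all 35116 RefSeq windows of 250 bases, in 29 of 37 UBE2 windows and in 36 of 50 USP windows. CCAAT (or ATTGG), the E-box CACGTG, GCGCATGC and CCGGAAGT were also searched on both strands and are in 32.01%, 6.34%, 2.63% and 3.42% of all windows; none is among the printed letters. The stretches of UBE2D2 and USP14 are shorter than these windows, so the shares cannot be set directly beside them. A match is a description of letters, not a site.

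The 5 tested USP genes with the most counts did not pass. USP1, which deubiquitinates DNA repair proteins together with WDR48, averaged 158 ± 7.61 CPM after CTI-2 and 144 ± 11.1 CPM in controls (SD, n = 3 each; log2 fold change 0.19, edgeR adjusted p = 0.280). USP5, which disassembles free chains, averaged 73.5 ± 3.81 CPM after CTI-2 and 75.2 ± 12.9 CPM in controls, with a log2 fold change of 0.03 (SE 0.13). USP11, which acts in DNA repair, had a log2 fold change of 0.15, the spliceosome protein USP39 had 0.11 and USP47 had 0.03.

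Members studied for p53 control, endosomal sorting or histone deubiquitination were likewise not called. USP7, which stabilises the p53 ligase MDM2, had -0.05 (SE 0.15), USP10 0.09 (SE 0.25), USP8, which acts at endosomes, 0.12 (SE 0.14), USP9X 0.06 (SE 0.16) and the histone deubiquitinase USP16 0.12 (SE 0.19) on the log2 scale, with edgeR adjusted p between 0.669 and 0.885. USP22, the deubiquitinase of the SAGA complex, had 13, 10 and 1 counts after CTI-2 and 12, 5 and 3 counts in controls and was not tested. USP15 had the second-largest positive log2 fold change among tested USP genes, with 42.8 ± 2.46 CPM after CTI-2 and 35.8 ± 5.26 CPM in controls (log2 fold change 0.32, edgeR adjusted p = 0.166), and passed once the length trend was removed (edgeR log2 fold change 0.44, adjusted p = 0.0419). USP18, which removes ISG15, had 0.38 and USP54 had -0.61, both on fewer than 20 counts per library. USP48 did not pass (log2 fold change -0.48, edgeR adjusted p = 0.121) although its groups did not overlap.

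**Figure D3:**
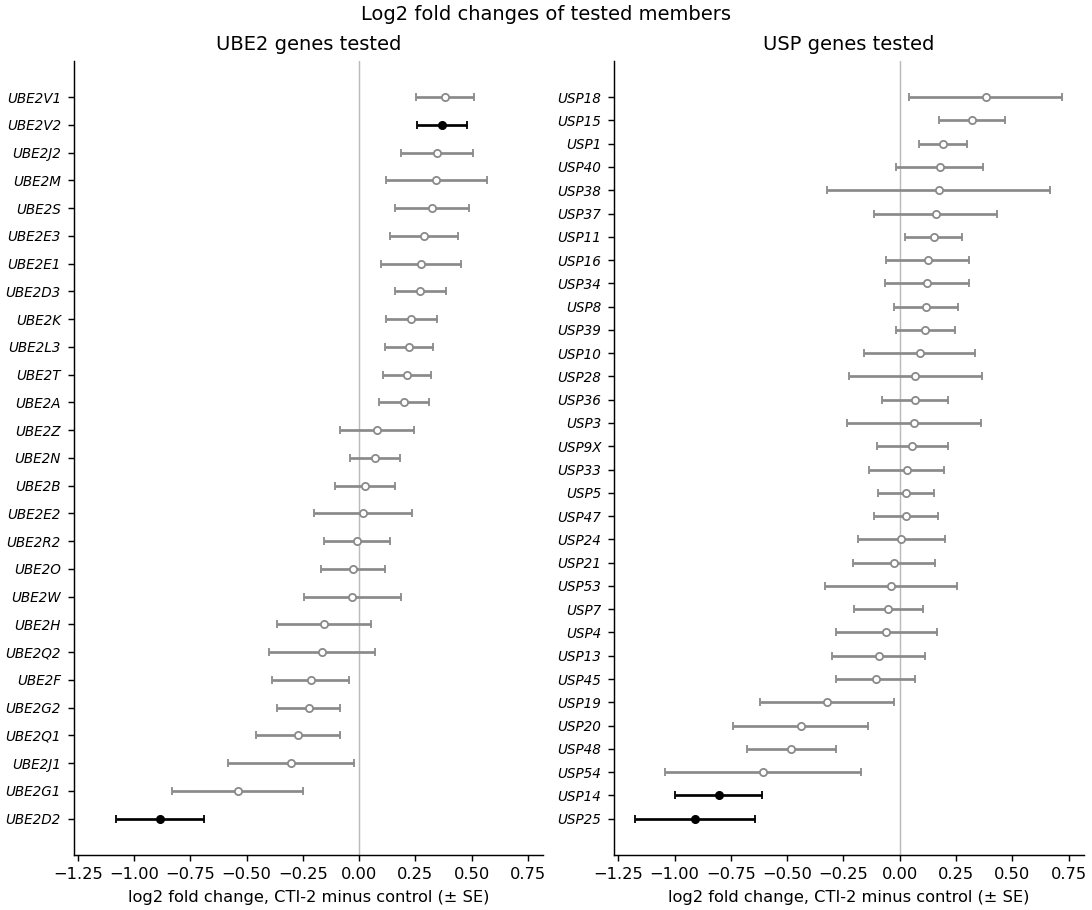
Log2 fold changes, CTI-2 minus control, with SE (horizontal axis) of tested UBE2 and USP genes, ordered by size; filled black points passed an adjusted p of 0.05. The lowest values are -0.88 for UBE2D2 and -0.91 for USP25, and the filled points are UBE2D2, UBE2V2, USP14 and USP25.

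As families, the 2 differed little in median log2 fold change with all libraries, and more in median deviation per library. Median log2 CPM deviations of UBE2 genes averaged 0.07 over CTI-2 libraries and -0.09 over controls (control SD 0.10). For USP genes the averages were -0.002 and 0.006 (control SD 0.14). The median log2 fold change was 0.07 over tested UBE2 genes (quartiles -0.16 and 0.28), 0.04 over tested USP genes (-0.07 and 0.12) and -0.01 over all tested genes (-0.26 and 0.19). Positive values were held by 17 of 28 UBE2 genes, 20 of 32 USP genes and 48.7% of all tested genes. The summed CPM of all UBE2 members was 2095, 2098 and 2150 in CTI-2 libraries and 2093, 1959 and 1883 in controls; that of USP members was 947, 907 and 930 CPM in CTI-2 libraries and 1043, 817 and 994 CPM in controls. Every CTI-2 library lay above every control for the UBE2 sum, narrowly so at control 1, and within the range of the controls for the USP sum.

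The separation between groups differed more. In 10 of 28 UBE2 genes every CTI-2 library lay above every control in CPM, among them UBE2V2, UBE2V1, UBE2L3, UBE2K, UBE2T, UBE2S, UBE2E3, UBE2E1 and UBE2M, against 0 of 32 USP genes and 13.2% of all tested genes. In the other direction the counts were 2 of 28, 3 of 32 and 15.6%. Of the UBE2 genes named here as higher only UBE2V2 was called. The gap could be small, as for UBE2E1, with 22.8 CPM in CTI-2 library 1 and 22.7 CPM in control 1. Without control 2 the UBE2 and USP counts higher were again 10 and 0, beside 16.7% of all tested genes, and those lower were 5 and 7, beside 30.7%. Depth differed as well: the median of mean counts per library was 116 for tested UBE2 genes, 60.7 for tested USP genes and 63.6 for all tested genes. The median SE of the log2 fold change was 0.157, 0.193 and 0.190 in the same order. This difference in separation between the families was described and not tested, nor was the part of depth in it.

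**Figure D4:**
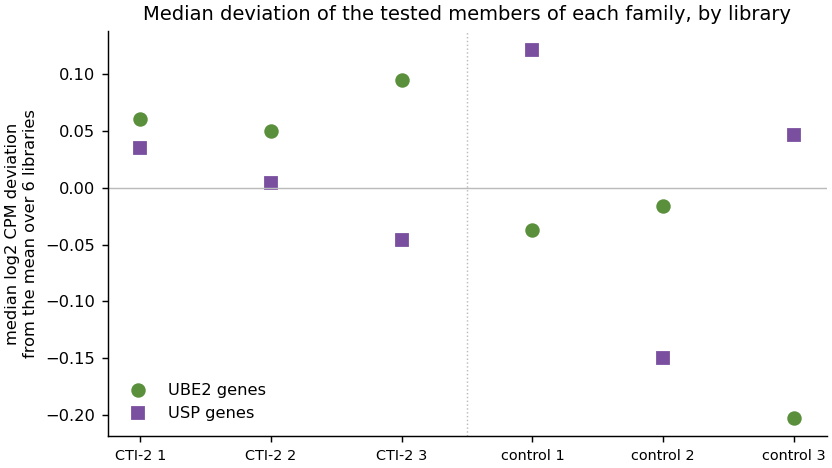
Median log2 CPM deviation (vertical axis) of the tested UBE2 and USP genes from their mean over 6 libraries, for each library. UBE2 medians are 0.05 to 0.09 in CTI-2 libraries and -0.20 to -0.02 in controls, while USP medians are -0.05 to 0.04 in CTI-2 libraries and -0.15 to 0.12 in controls, where the USP median of control 2 is lowest.

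The 2 families do not share transcript length, and length moved with fold change over all genes. Tested UBE2 genes had a median annotated transcript of 3075 bases and tested USP genes of 4632 bases, against 3095 bases over the tested genes with a length. Over 5 bins of about 1844 genes each, from short to long, the median log2 fold change was 0.10, 0.04, -0.01, -0.04 and -0.09, and the share of genes with every CTI-2 library above every control was 26.9, 16.6, 11.99, 8.63 and 4.83%. The shortest bin held 5 UBE2 and no USP genes, and the longest held 2 UBE2 and 13 USP genes. Of the 10 separated UBE2 genes 4 were among the 5 in the shortest bin, 2 among the 6 in the second, 2 among 8 in the third and 2 among 7 in the fourth. With the length trend of each library removed, the medians were 0.09 for UBE2 and 0.07 for USP genes. The part of length in the family difference was not tested beyond these values.

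**Figure D5:**
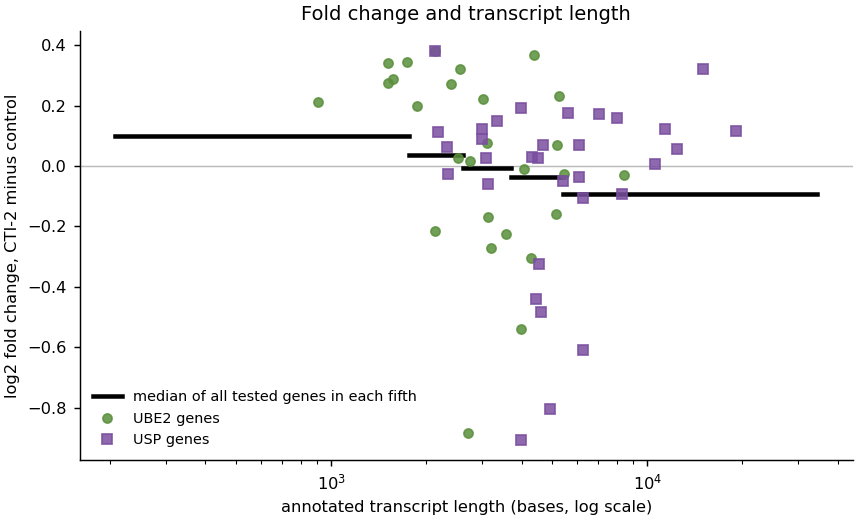
Log2 fold change, CTI-2 minus control (vertical axis), against annotated transcript length in bases (log axis) for tested UBE2 and USP genes; black bars are the medians of all tested genes in 5 bins of length with about equal numbers of genes. The bars fall from 0.10 in the shortest to -0.09 in the longest bin, and 13 of the 32 USP genes lie in the longest.

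The distance between the family medians changed when control 2 was left out. UBE2 minus USP median deviations were 0.03, 0.05 and 0.14 in CTI-2 libraries 1 to 3 and -0.16, 0.13 and -0.25 in controls 1 to 3, so control 2 lay within the CTI-2 range. The family difference in median log2 fold change was 0.03 with all libraries and 0.20 without control 2 (0.15 for UBE2 and -0.05 for USP genes). Without control 2, 5 UBE2 genes were called higher (among them UBE2V2, UBE2V1, UBE2L3 and UBE2T) and 0 lower, and 0 USP genes higher and 3 lower, with 16.1% of all genes called, 9.57% higher and 6.53% lower, in that fit.

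Other genes of the pathway were read from lists, set beside 8.03% of all genes called and an all-gene median log2 fold change of -0.01. Of 8 tested E1 genes 1 was lower and 0 higher (median -0.03). UBA2, a subunit of the SUMO E1, had 87.2, 90.0 and 82.9 CPM after CTI-2 and 145, 113 and 100.4 CPM in controls (all CTI-2 libraries lower; log2 fold change -0.41, edgeR adjusted p = 0.033). Its partner subunit SAE1 had 0.30 (adjusted p = 0.113), and UBA1, the main ubiquitin E1, had -0.13 (adjusted p = 0.473). UBA2 was not called by DESeq2 (adjusted p = 0.126), limma-voom (0.0519) or edgeR with the length trend removed (0.0675), and of the 6 fits that each leave out a library only the one without control 3 called it.

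Of 7 tested E2 genes outside the name rule 1 was higher and 0 lower (median -0.11). It was ATG3, the E2 of autophagy, at 146 ± 5.75 CPM after CTI-2 and 108 ± 14.6 CPM in controls (SD, n = 3 each; log2 fold change 0.48, edgeR adjusted p = 0.0090). Of 25 tested deubiquitinases of other classes 2 were higher and 0 lower (median 0.10): STAMBP, which acts at endosomes, at 0.45 (edgeR adjusted p = 0.016), and COPS5, which removes NEDD8 from cullin ligases, at 0.40 (adjusted p = 0.0204). UCHL5, another deubiquitinase that binds the proteasome, stood at 0.27 on the log2 scale (edgeR adjusted p = 0.110), and the proteasome's own deubiquitinase PSMD14 had 0.02. None of 13 tested proteases of ubiquitin-like tags passed in edgeR (median 0.03); 3 of them, and 23.9% of all genes, had an unadjusted p under 0.05. Of 9 tested cofactors of USP enzymes 1 was higher and 0 lower (median 0.20), namely WDR20, an activator of USP12 and USP46, at 33.0 ± 0.381 CPM after CTI-2 and 23.4 ± 1.83 CPM in controls (log2 fold change 0.55, edgeR adjusted p = 0.028). COPS5, STAMBP, ATG3 and WDR20 each missed the threshold in at least 1 fit without a library. WDR20 also missed it in DESeq2 (adjusted p = 0.0986) and with library totals (0.0629), and overlaps HSP90AA1 on the opposite strand.

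The 17 members that were not tested, 3 UBE2 and 14 USP genes, averaged 0.167 to 11.5 counts per library. USP42 had 9, 3 and 1 counts after CTI-2, against 13, 14 and 13 counts in controls, and was called lower by edgeR with no filter (adjusted p = 0.0408). USP35 had 1, 0 and 1 counts after CTI-2 and 2, 5 and 7 in controls. USP43 had 6, 9 and 4 counts after CTI-2 and 3, 5 and 2 in controls. USP42 and USP35 lay lower and USP43 higher in CPM in every CTI-2 library, and the remaining USP genes in this class overlapped between groups. USP6 was read once, in a CTI-2 library, and USP41 once, in a control.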

How the data were processed

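Trizol RNA was turned into Oxford Nanopore cDNA-PCR libraries, per the labels' protocols, and the submitters' processing notes name minimap2; the sources used here do not give build, annotation, counter, strand use or filters. Per gene, the authors deposited whole-number counts of reads, and CPM that equal each count over its library's total times 1000000 to within 1e-09. Counts were filtered (edgeR filterByExpr, leaving 9848 of 16362 genes), TMM-scaled and put through the quasi-likelihood test of edgeR 4.0.16 in R 4.3.3, CTI-2 minus control, adjusted by Benjamini-Hochberg; SE came from fold change and test statistic. Transcript length and GC came from GENCODE 29 (93.6% of tested genes), and coordinates are given where its span equals the deposited length (80.6% of 14408 identifiers). Members and lists were chosen with earlier results of these data known. Named members are those called, the 5 with most counts and 3 largest changes each way per family, and a set list; others (such as USP42, UBE2D1, USP48, UBE2K, SAE1 and UCHL5) were named after their values were seen. Results of some genes that these rules name are not reported here, in text or figures; family counts include them.

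On simulated counts with CTI-2 set against control (a fit of 9859 genes) the test recovered 41.2% of genes changed 1.5-fold, 71.4% at 2-fold and 100% at 4-fold, with 5 of 130 calls false. The simulation gave every gene in both groups the same relative spread, without library effects, and changed only genes above a minimum mean count. The real controls were more spread than the CTI-2 libraries, and control 2 differed with transcript length, so these rates may not hold for these data. All pairs of libraries within a group differed beyond sampling noise. Reads carry no molecular identifiers, so count floors cover counting error only. Alternatives were DESeq2's size factors, library totals, 2 other count filters, DESeq2 1.42.0, limma-voom (limma 3.58.1), a replicate block, an adjusted p of 0.01, removal of a lowess trend (span 0.3) on transcript length or GC per library, and leaving out each library.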

Additional observations from a re-analysis of the deposited data

How the results depend on the processing

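With all libraries, the calls of USP14 and UBE2D2 held in all 9 alternatives that keep the 0.05 threshold, while those of USP25 and UBE2V2 did not. Genes called over the table numbered 791, against 306 at an adjusted p of 0.01 and 498 in DESeq2. UBE2 genes higher numbered 2, against 1 with library totals, DESeq2 or the length or GC trend removed and 0 at 0.01; UBE2 genes lower numbered 1, against 2 with no filter and 0 at 0.01; USP genes lower numbered 2, against 1 in DESeq2 or at 0.01; 1 USP gene was higher with the length trend removed. Leaving out each library gave 400 to 1610 genes called, 0 to 5 UBE2 genes higher and 0 to 2 lower, 0 to 3 USP genes lower, UBE2 medians of 0.066 to 0.151, USP medians of -0.053 to 0.057 and family differences of 0.045 to 0.204. The cause of these moves was not tested.

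The replicate number as a block gave 942 calls, with UBE2V1 added (log2 fold change 0.39, adjusted p = 0.0479) and no member's call lost. Same-numbered libraries did not deviate together (r = -0.05, 0.01 and -0.12), and libraries of unlike number gave r of -0.10 to 0.14. With 3 libraries per group, such values cannot settle if the numbers pair libraries.

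Among the members chosen to be named, some values near 0 changed sign without a call; others near 0 did so too and are not listed. Library totals moved the UBE2 and USP medians down together, to 0.027 and -0.005, and turned UBE2B (-0.021), USP47 (-0.021) and USP5 (-0.025) negative. The values were below 0 with the GC trend removed for UBE2B (-0.014) and USP47 (-0.020), and above 0 with the length trend removed for USP7 (0.012). Leaving out each library gave -0.051 to 0.114 for UBE2B, -0.022 to 0.164 for UBE2N, -0.125 to 0.314 for USP10, -0.094 to 0.133 for USP47, -0.058 to 0.140 for USP5, -0.183 to 0.025 for USP7 and -0.077 to 0.194 for USP9X.

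Depth limits what the 14 untested USP genes can show, and members under about 20 counts per library carry large counting errors.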
